A study of Rattus norvegicus with 56 samples.

Results

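The genes described here mark the wall of brain blood vessels: 7 endothelial genes (Cd93, Cldn5, Flt1, Kdr, Pecam1, Tek and Vwf) and 3 mural genes (Acta2, Pdgfrb and Tagln), in the dorsal striatum of rats. They were chosen by gene symbol as 10 of the 14217 genes named by a probe set of their own, and 16 of 31042 probe sets carried 1 of the 10 symbols. Of these, 11 were among the 18625 probe sets tested, with at least 1 for every gene. The other 5 had a mean log2 signal below 4.99, the 40th percentile of all probe sets, and are described separately. A probe set is a group of short probes for 1 transcript, and signals of different probe sets cannot be set against each other as amounts of RNA.

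The study measured 56 male Crl:OFA (Sprague Dawley) rats on 1 array each, in 8 groups of 7. In the 28 lesioned rats an adeno-associated virus (AAV) that made cells overexpress alpha-synuclein had depleted the substantia nigra on both sides, and the 28 sham rats had the same vector with GFP, so every rat carried a viral injection. From 5 weeks on, rats received daily L-dopa methyl-ester at 50 mg/kg with benserazide, or saline, under the skin for 3 weeks. They then underwent place conditioning in 40 min sessions with pramipexole, a dopamine agonist labelled ppx, at 2 mg/kg, or with saline throughout. Brains were taken 24 or 48 h after the last dose. The groups were Lesion_Ldopa_ppx, Lesion_Ldopa_saline, Lesion_saline_ppx and Lesion_saline_saline, then Sham_Ldopa_ppx, Sham_Ldopa_saline, Sham_saline_ppx and Sham_saline_saline.

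Rats were numbered 1 to 56 in that order, and the signals of a set of probe sets shifted between rats 37 and 38. This division came from the values, not from a label. It split Sham_Ldopa_saline into 2 rats (36 and 37) and 5 rats (38 to 42), so 9 sets of rats were fitted with limma. The sham rats given saline treatment lay wholly in 38 to 56 and all lesioned rats in 1 to 37. In Sham_Ldopa_saline, 16 of 18625 probe sets (0.0859%) differed between rats 38 to 42 and rats 36 and 37 at an adjusted p of 0.05, the threshold used throughout, and none of the 11 vascular probe sets was among them (0 at an unadjusted p of 0.05, and 3.81% of all). Rat 2 stood apart by a microglia score of 2.42 (next highest 0.30) and rat 7 by a choroid plexus score of 2.89 (next highest 1.62), both in Lesion_Ldopa_ppx. Differences of vascular probe sets that rest on that group were therefore also computed without them. So were correlations over all rats with Hbb, whose r values without them are not printed, and between vascular genes, of which some are printed. Group means, fits with covariates and counts over lists of other vessel genes are given only with them. Striatal neuron markers were among the brightest probe sets, with Penk at the 99.8th and Drd1 at the 98.3rd percentile.

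Endothelial cells of the brain are joined by tight junctions and form the blood-brain barrier, and pericytes and smooth muscle cells wrap them as mural cells. Endothelial growth is steered by vascular endothelial growth factor acting on its receptors and by angiopoietins acting on Tek, while platelet-derived growth factor from endothelium holds pericytes in place through Pdgfrb. Smooth muscle of arterioles contracts through actin filaments that contain Acta2. In toxin-lesioned rats, long L-dopa treatment has been linked in earlier literature to endothelial proliferation in the basal ganglia. Haemoglobin beta, Hbb, comes mainly from red cells left in the vessels and served here as a measure of residual blood in each sample.

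Promoter sequences were in the RefSeq table for 4 of the 10 genes: Acta2, Cldn5, Flt1 and Kdr. The 250 bases before the gene start are printed for Acta2, the 1 gene that passed a test below, and for Cldn5, the brightest of the set, which passed none. The Acta2 window is GRCr8 chr1:241172504-241172753 and the Cldn5 window is GRCr8 chr11:95718599-95718848. Both genes lie on the minus strand and are printed 5′ to 3′. Capitals mark matches, on either strand, to a CArG box (CC, then 6 bases of A or T, then GG, the site bound by serum response factor) in which 1 of the 6 core bases was allowed to be C or G, or to the letters TATATA, as found by a search of each window.
Acta2: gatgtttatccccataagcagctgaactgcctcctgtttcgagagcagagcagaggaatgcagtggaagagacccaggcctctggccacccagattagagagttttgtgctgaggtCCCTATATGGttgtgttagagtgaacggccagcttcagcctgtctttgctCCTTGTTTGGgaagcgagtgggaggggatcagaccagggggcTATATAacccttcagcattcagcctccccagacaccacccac
Cldn5: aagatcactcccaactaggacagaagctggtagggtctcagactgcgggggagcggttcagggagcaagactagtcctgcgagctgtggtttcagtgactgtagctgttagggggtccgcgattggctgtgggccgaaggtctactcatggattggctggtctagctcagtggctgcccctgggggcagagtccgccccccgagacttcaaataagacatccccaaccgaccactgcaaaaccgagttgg
The Acta2 window held 2 CArG boxes with 1 core base C or G, at -134 to -125 and -84 to -75 from the gene start, and TATATA at -42 to -37. The Cldn5 window held no match to these letters. Of the windows not printed, that of Kdr, which passed no test, held such a CArG box at -250 to -241. That of Flt1 held TATAAA, which was also searched for, at -75 to -70. In both of these windows positions count back from the window's end, which is not the start of the gene record. The Flt1 window, chr12:12333180-12333429 on the plus strand, lies after the record's start at 12333050. The Kdr window, chr14:32571813-32572062 on the plus strand, runs past the record's start at 32572031. A CArG box with up to 1 core base C or G was present in 8.08% of 33469 promoters of this length. That share includes the 1.50% with a CArG box with no substitution. TATATA was present in 5.45% and TATAAA in 12.9%. The share of promoters with 2 such boxes was not counted. These are matches of letters only.

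In each of the 11 tested probe sets the means of the 8 groups lay within 0.75 log2 units. In such tissue samples, fewer vascular cells and less RNA per vascular cell cannot be told apart. Means over 56 rats, in log2 signal, were 9.36 for Cldn5 (claudin-5, the tight junction protein of the barrier), 7.45 for Tek (the angiopoietin receptor), 6.76 for Flt1 (a receptor that binds vascular endothelial growth factor and can act as a decoy), 6.65 for Kdr (a main receptor for vascular endothelial growth factor) and 6.62 for Vwf (von Willebrand factor, which tethers platelets). They were 5.80 for Acta2, 5.46 for Tagln (transgelin, an actin-binding smooth muscle protein), 5.24 and 5.11 for the brighter and dimmer tested probe sets of Pdgfrb (1370642_s_at and 1379211_at), 5.22 for Cd93 (an endothelial surface lectin) and 5.13 for Pecam1 (an endothelial adhesion protein also found on platelets and leukocytes). Among all probe sets, Cldn5 stood at the 93.3rd percentile of mean signal and Tek at the 74.5th, whereas Pdgfrb, Cd93 and Pecam1 stood between the 41.6th and 43.4th, just above the filter.

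The distance between the lowest and highest group mean was 0.75 log2 units for Cd93, 0.51 for Flt1, 0.43 for Acta2 and 0.17 for Cldn5. Ordered by mean, the 8 groups formed 7 steps, and in none of the 11 probe sets did any step between neighbours exceed the larger of both SDs. Ordering makes such steps small, so this says little about the distance between the ends. The same held for Hbb, and both Hbb and Acta2 passed a test described below. In Acta2 the order ran from Lesion_saline_saline (5.58 ± 0.18, SD, n = 7) to Sham_saline_saline (6.01 ± 0.23), and in Cd93 from Lesion_Ldopa_ppx (4.81 ± 0.37) to Sham_saline_saline (5.56 ± 0.37). Flt1 was lowest in Lesion_saline_ppx (6.48 ± 0.43) and highest in Sham_Ldopa_saline (6.99 ± 0.23). Cldn5 had its lowest mean in Sham_Ldopa_ppx (9.29 ± 0.27) and its highest in Sham_saline_saline (9.46 ± 0.08).

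**Figure D1:**
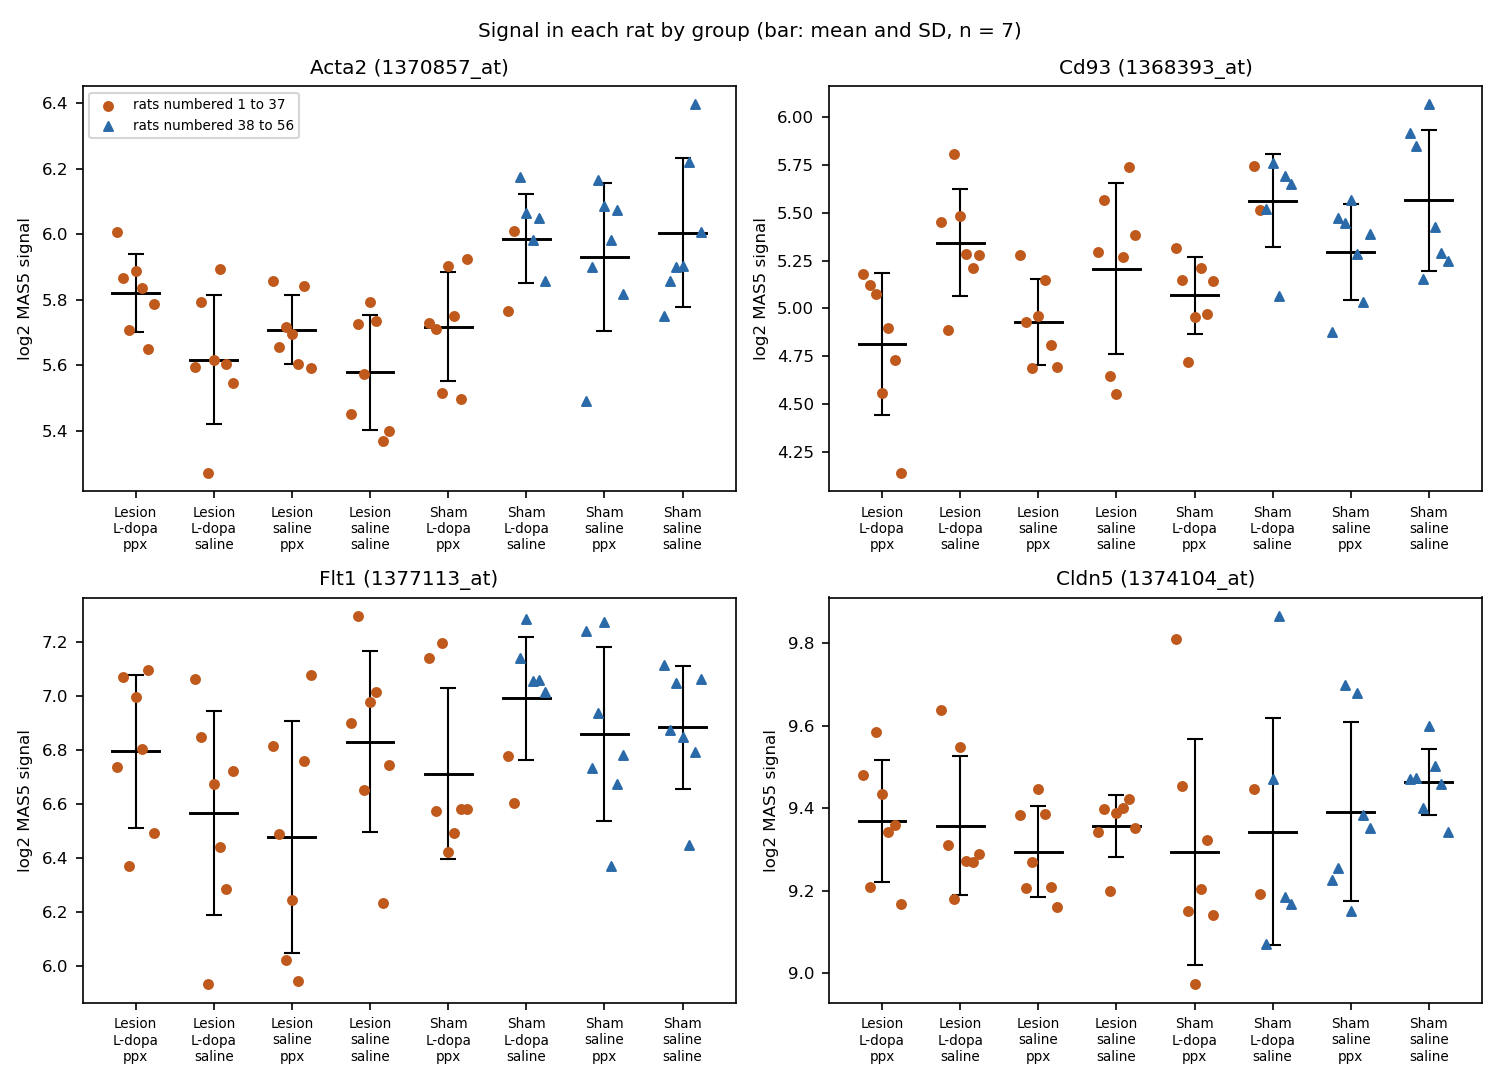
Log2 signal of Acta2, Cd93, Flt1 and Cldn5 in each of 56 rats, by group, with lesioned groups left of sham groups. Bars give the mean and SD of 7 rats and the marker shows whether the rat number lies in 1 to 37 or 38 to 56; the ranges of neighbouring groups overlap in all 4 genes.

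Pramipexole conditioning went with no vascular probe set that passed the test, whether in lesioned or in sham rats. Among comparisons of 7 against 7 rats the largest difference was in Cd93, which was lower after pramipexole in each of the 4 comparisons made without passing the adjustment over all probe sets. In lesioned rats given L-dopa, Cd93 had a lowest, median and highest signal of 4.14, 4.90 and 5.18 with pramipexole, against 4.89, 5.29 and 5.80 with saline conditioning. All 7 rats with pramipexole were below the mean of the saline-conditioned rats, although the ranges overlapped. The difference was -0.53 ± 0.16 log2 (SE, 95% interval -0.86 to -0.20), with a limma adjusted p of 0.614. Without rats 2 and 7 it was -0.46 ± 0.17 (limma adjusted p = 0.942).

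In lesioned rats given saline treatment, Cd93 ranged over 4.69, 4.93 and 5.28 (lowest, median, highest) with pramipexole, against 4.55, 5.30 and 5.74 with saline conditioning. Sham rats given saline treatment had 4.88, 5.39 and 5.57 with pramipexole, against 5.16, 5.42 and 6.07 without it. The ranges overlapped in both settings. Differences were -0.28 ± 0.16 in lesioned rats (limma adjusted p = 0.727) and -0.27 ± 0.16 in sham rats (limma adjusted p = 0.843), and one minus the other was -0.01 ± 0.23 (limma adjusted p = 0.996). Sham rats given L-dopa could be compared within a number range only as 7 rats with pramipexole against rats 36 and 37. Cd93 had 4.72, 5.14 and 5.32 with pramipexole, against 5.75 and 5.51 in rats 36 and 37. The difference was -0.56 ± 0.24 (limma adjusted p = 1.000), in a comparison in which 0% of all probe sets passed.

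Averaged over the 2 lesioned comparisons, the difference in Cd93 was -0.40 ± 0.11 (limma adjusted p = 0.642), and 13 of 14 rats with pramipexole were below the mean of their controls. A mean over the 3 comparisons of 7 against 7, added after the values were seen, was -0.36 ± 0.09 (limma adjusted p = 0.391), with 19 of 21 rats below. Without rats 2 and 7 the averages were -0.37 over the lesioned comparisons and -0.34 over the 3. The dimmer Cd93 probe set, 1387168_at, below the filter, was at -0.08 ± 0.16 in lesioned rats given L-dopa. The 2 probe sets of Cd93 correlated at r = 0.03 between rats within groups.

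Acta2 differed in the opposite sense in lesioned rats. With both drugs its lowest, median and highest signals were 5.65, 5.83 and 6.01, against 5.27, 5.60 and 5.89 with L-dopa alone. The difference was +0.20 ± 0.09 (limma adjusted p = 0.825), also +0.20 without rats 2 and 7, and +0.13 ± 0.09 in lesioned rats given saline treatment (limma adjusted p = 0.770). All 14 lesioned rats with pramipexole were above the mean of their controls, at a mean difference of +0.17 ± 0.07 (limma adjusted p = 0.688). In sham rats given saline the difference was -0.07 ± 0.09, and the pramipexole effects in lesioned and in sham rats differed by +0.21 ± 0.13 (limma adjusted p = 0.825).

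For Flt1 the pramipexole differences had opposite signs with and without L-dopa. In lesioned rats given saline treatment Flt1 had 5.94, 6.49 and 7.08 with pramipexole, against 6.23, 6.90 and 7.29 without, a difference of -0.35 ± 0.16 (limma adjusted p = 0.687). In lesioned rats given L-dopa it had 6.37, 6.80 and 7.10 with pramipexole, against 5.93, 6.67 and 7.06 without, a difference of +0.23 ± 0.16, also +0.23 without rats 2 and 7. The interaction of +0.58 ± 0.23 did not pass (limma adjusted p = 0.701). For the dimmer Flt1 probe sets 1370492_a_at and 1369087_at, both below the filter, it was -0.15 ± 0.30 and +0.32 ± 0.30. The other tested genes, Cldn5, Kdr, Pdgfrb, Pecam1, Tagln, Tek and Vwf, had pramipexole differences between -0.18 (Vwf, sham) and +0.13 (Pecam1, lesioned with L-dopa) in the comparisons of 7 against 7. Without rats 2 and 7, Pecam1 in lesioned rats given L-dopa was at -0.05, Tagln at +0.20 (against -0.01 with them) and the brighter Pdgfrb probe set at +0.17 (against +0.11). In the smaller comparison of 7 against 2 rats, Kdr was at -0.37 ± 0.18 and Pdgfrb (1379211_at) at -0.57 ± 0.29, both with a limma adjusted p of 1.000.

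Among all 18625 probe sets, 0.0161% (3) passed for pramipexole in lesioned rats given L-dopa, against 0 of 11 vascular probe sets (2 at an unadjusted p of 0.05, and 5.82% of all probe sets). In lesioned rats given saline 0% of all probe sets and 0 of 11 passed (1 at an unadjusted p of 0.05, and 7.08% of all). Averaged over both treatments 0% and 0 of 11 passed (2 unadjusted, and 6.37% of all), and for the interaction 0% and 0 of 11 (1 unadjusted, and 6.98% of all). In sham rats given saline 0% and 0 of 11 passed (0 unadjusted, and 6.32% of all), as did 0% and 0 of 11 in sham rats given L-dopa (2 unadjusted, and 3.44% of all). For the lesioned minus sham difference in effect the numbers were 0% and 0 of 11 (0 unadjusted, and 6.70% of all). The mean over 3 comparisons had 0.00537% (1) of all probe sets and 0 of 11 (1 unadjusted, and 6.07% of all). All counts are from limma with Benjamini-Hochberg adjustment.

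**Figure D2:**
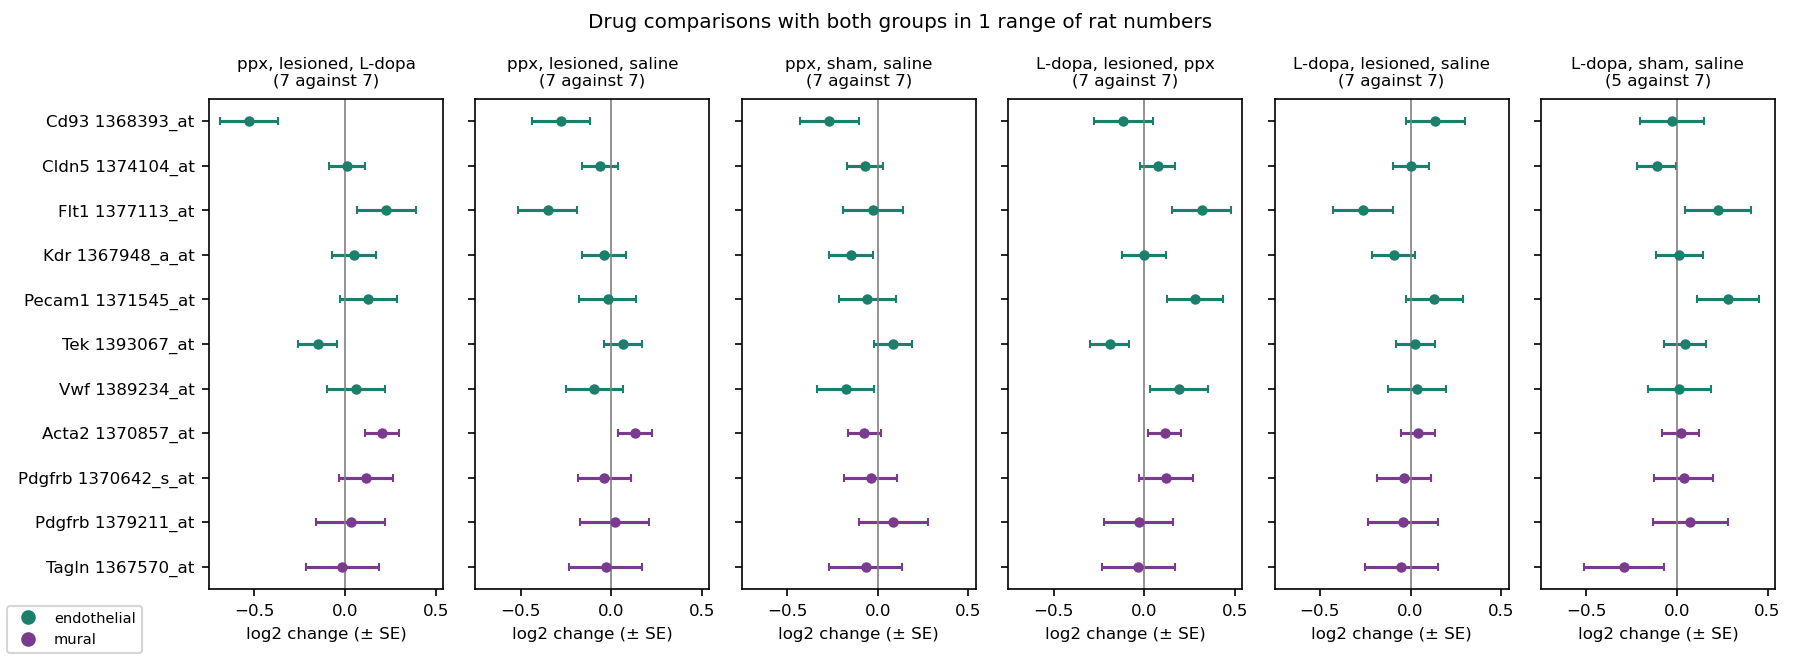
Log2 change with SE of the 11 vascular probe sets in 6 drug comparisons made within a number range (drug minus saline). Cd93 lies left of 0 in the 3 pramipexole comparisons, between -0.53 and -0.27, and no point passes the limma test.

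Hbb, the measure of blood, was lower with pramipexole in the same comparisons. With L-dopa, lesioned rats had Hbb signals of 9.71, 9.78 and 10.68 (lowest, median, highest) with pramipexole, against 10.31, 10.91 and 11.08 with saline conditioning. Hbb fell there by 0.87 on the log2 scale (SE 0.17, limma adjusted p = 0.0403), and without rats 2 and 7 no probe set passed, with Hbb at -0.80 ± 0.19 (limma adjusted p = 0.353). It was at -0.18 in lesioned rats given saline and at -0.36 ± 0.17 in sham rats given saline (limma adjusted p = 0.772), neither of which passed. With Hbb as a covariate, the Cd93 difference in lesioned rats given L-dopa was -0.37 ± 0.20 (limma adjusted p = 0.766), against -0.53 without it. In that comparison all 7 tested microglia markers were also higher with pramipexole, with a median of +0.38 and 0 passing, and rat 2 was among the rats with pramipexole. Without rats 2 and 7, 5 of the 7 markers were higher, with a median of +0.08. The part of blood or microglia in the Cd93 values was not tested further.

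L-dopa likewise went with no vascular probe set that passed. Flt1 had the smallest adjusted p in lesioned saline-conditioned rats, with 5.93, 6.67 and 7.06 after L-dopa, against 6.23, 6.90 and 7.29 after saline. The difference of -0.26 ± 0.16 (limma adjusted p = 0.507) was within the overlap of both groups. There the dimmer Flt1 probe sets 1370492_a_at and 1369087_at, below the filter, were at +0.05 ± 0.21 and +0.09 ± 0.21. In lesioned pramipexole-conditioned rats Flt1 was at +0.32 ± 0.16 (limma adjusted p = 0.961; also +0.32 without rats 2 and 7) and in sham saline-conditioned rats numbered 38 to 56 at +0.23 ± 0.18 (limma adjusted p = 0.887). The L-dopa effect on Flt1 in lesioned minus sham saline-conditioned rats was -0.49 ± 0.24 (limma adjusted p = 0.823). Its sign therefore differed between settings, with no difference past the threshold.

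Pecam1 was higher after L-dopa in each of the 3 comparisons, again without passing. In lesioned pramipexole-conditioned rats it had 4.90, 5.21 and 6.00 after L-dopa, against 4.63, 4.98 and 5.31 after saline, a difference of +0.28 ± 0.16 (limma adjusted p = 0.967). The highest value was that of rat 2, and without rats 2 and 7 the difference was +0.11 ± 0.16. In lesioned saline-conditioned rats Pecam1 was at +0.13 ± 0.16, and in sham rats at +0.28 ± 0.17 (limma adjusted p = 0.822). A mean of the 3, added after the values were seen, was +0.23 ± 0.09 (limma adjusted p = 0.336), with 13 of 19 rats above the mean of their controls, and +0.17 ± 0.09 without rats 2 and 7. Rat 2 also had the highest microglia score, whose part in this value was not tested further.

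Barrier and receptor genes differed little with L-dopa. Cldn5 was at +0.00 ± 0.10 and +0.07 ± 0.10 in lesioned rats with saline and pramipexole conditioning, and at -0.11 ± 0.11 in sham rats. Kdr differences were between -0.09 and +0.01. Tek was at -0.19 ± 0.11 in lesioned pramipexole-conditioned rats (limma adjusted p = 0.967; -0.13 without rats 2 and 7) and at +0.03 and +0.04 in the other settings. Of the mural genes, Acta2 was between +0.02 and +0.11 and the brighter Pdgfrb probe set between -0.03 and +0.12, while Tagln was at -0.29 ± 0.22 in sham rats (limma adjusted p = 0.879). In lesioned pramipexole-conditioned rats, leaving out rats 2 and 7 put Cldn5 at +0.15, Kdr at +0.05, the brighter Pdgfrb probe set at +0.17 and Tagln at +0.18 (against -0.03 with them).

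For L-dopa in lesioned saline-conditioned rats 0.0161% (3) of all probe sets passed, against 0 of 11 vascular ones (0 at an unadjusted p of 0.05, and 12.8% of all). In lesioned pramipexole-conditioned rats 0% and 0 of 11 passed (0 unadjusted, and 5.04% of all), and averaged over conditioning 0.00537% (1) and 0 of 11 (0 unadjusted, and 10.3% of all). In sham rats 0% and 0 of 11 passed (0 unadjusted, and 6.64% of all), and for the difference in effect 0% and 0 of 11 (1 unadjusted, and 6.07% of all). The mean over 3 comparisons had 0.0376% (7) and 0 of 11 (1 unadjusted, and 11.3% of all).

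The lesion could be compared in 4 drug settings, of which the settings with L-dopa lie within rats 1 to 37 and those without L-dopa set lesioned rats of 1 to 37 against sham rats of 38 to 56. In lesioned rats given neither drug, Acta2 was the 1 vascular probe set of 11 that passed (2 at an unadjusted p of 0.05, and 13.7% of all), where 1.13% (211) of all probe sets passed. Its signals were 5.37, 5.57 and 5.79 (lowest, median, highest) in lesioned rats, against 5.75, 5.90 and 6.40 in sham rats. All 7 lesioned rats were below the sham mean, and the ranges overlapped narrowly. Acta2 fell by 0.43 on the log2 scale (SE 0.09, limma adjusted p = 0.0082).

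The Acta2 signal also differed in mean by rat number. It averaged 5.70 in the 37 rats numbered 1 to 37 and 5.98 in the 19 rats numbered 38 to 56. Inside Sham_Ldopa_saline, Acta2 had 6.17, 6.06, 5.98, 6.05 and 5.86 in rats 38 to 42, against 5.76 and 6.01 in rats 36 and 37, a difference of +0.14 ± 0.15. With the number range as a block, the lesion difference in Acta2 was -0.29 ± 0.17 (limma adjusted p = 0.997) and 0% of all probe sets passed. Lesioned and sham rats without L-dopa share no number range, so that this estimate rests on rats 36 to 42, and the lesion and the number range can otherwise not be told apart.

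Within rats 1 to 37 the lesion was compared in rats given both drugs. Acta2 had 5.65, 5.83 and 6.01 in lesioned rats, against 5.50, 5.73 and 5.92 in sham rats, a difference of +0.10 ± 0.09 (limma adjusted p = 0.889), and also +0.10 without rats 2 and 7. The lesioned rats given L-dopa and saline conditioning set against rats 36 and 37 gave Acta2 -0.27 ± 0.14 (limma adjusted p = 1.000). The sign of the Acta2 difference was thus not the same in all 4 settings. With pramipexole alone it was -0.22 ± 0.09 (limma adjusted p = 0.308), and -0.08 ± 0.17 with the number range as a block.

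A measure of RNA quality also differed in mean between the groups in which Acta2 passed. The mean log2 signal of the 3′ minus that of the 5′ probe sets of 3 control genes was 0.81 in lesioned rats given neither drug (0.76 to 0.85), against 1.01 in sham rats (0.84 to 1.14). With it as a covariate Acta2 changed by -0.43 ± 0.10 (limma adjusted p = 0.0459). With Hbb as a covariate the change was -0.43 (limma adjusted p = 0.0075), and Hbb itself was at +0.05.

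Cd93 had negative lesion differences in these settings without passing. It was at -0.36 ± 0.16 with neither drug (limma adjusted p = 0.310), -0.37 ± 0.16 with pramipexole alone (limma adjusted p = 0.352) and -0.25 ± 0.16 with both drugs (limma adjusted p = 0.813; -0.18 without rats 2 and 7). Flt1 was at -0.38 ± 0.16 with pramipexole alone (limma adjusted p = 0.336) and at +0.04 ± 0.31 with the number range as a block. It was at -0.05 ± 0.16 with neither drug, at +0.37 ± 0.31 there with the block, and at +0.08 ± 0.16 with both drugs. The sign of the Flt1 difference thus varied across settings. With pramipexole alone the dimmer Flt1 probe sets, below the filter, were at +0.57 ± 0.21 (1370492_a_at) and -0.24 ± 0.21 (1369087_at), so the sign also varied between probe sets.

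In rats given both drugs, the brighter Pdgfrb probe set had 5.14, 5.25 and 5.71 in lesioned rats, against 4.42, 4.97 and 5.58 in sham rats. The difference was +0.35 ± 0.15 (limma adjusted p = 0.689) and +0.40 without rats 2 and 7, with all 7 lesioned rats above the sham mean. The dimmer tested Pdgfrb probe set was at +0.16 ± 0.19, and the correlation of both between rats was 0.31. The Pdgfrb probe set below the filter, 1391394_s_at, was at -0.29 ± 0.37 and correlated with the brighter one at -0.06. Cldn5 was at +0.07 ± 0.10 with both drugs and at -0.11 ± 0.10 with neither, and Tek at -0.15 ± 0.11 and -0.03 ± 0.11. Without rats 2 and 7, Cldn5 with both drugs was at +0.15, Tek at -0.09, Pecam1 at +0.04 (against +0.21 with them) and Tagln at -0.03 (against -0.25). With the number range as a block, Tek with neither drug was at +0.05. Kdr was at +0.19 ± 0.12 with both drugs and at +0.24 ± 0.12 with pramipexole alone (limma adjusted p = 0.432).

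With both drugs 0% of all probe sets and 0 of 11 vascular ones passed for the lesion (1 at an unadjusted p of 0.05, and 6.79% of all). Against rats 36 and 37 the shares were 0% and 0 of 11 (0 unadjusted, and 3.74% of all). With the number range as a block, Kdr was at -0.02 ± 0.22 and Pecam1 at +0.26 ± 0.29 with pramipexole alone, against +0.24 and -0.11 without the block, so their signs were not kept. With pramipexole alone 0.838% (156) of all probe sets passed and 0 of 11 (3 unadjusted, and 11.7% of all).

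**Figure D3:**
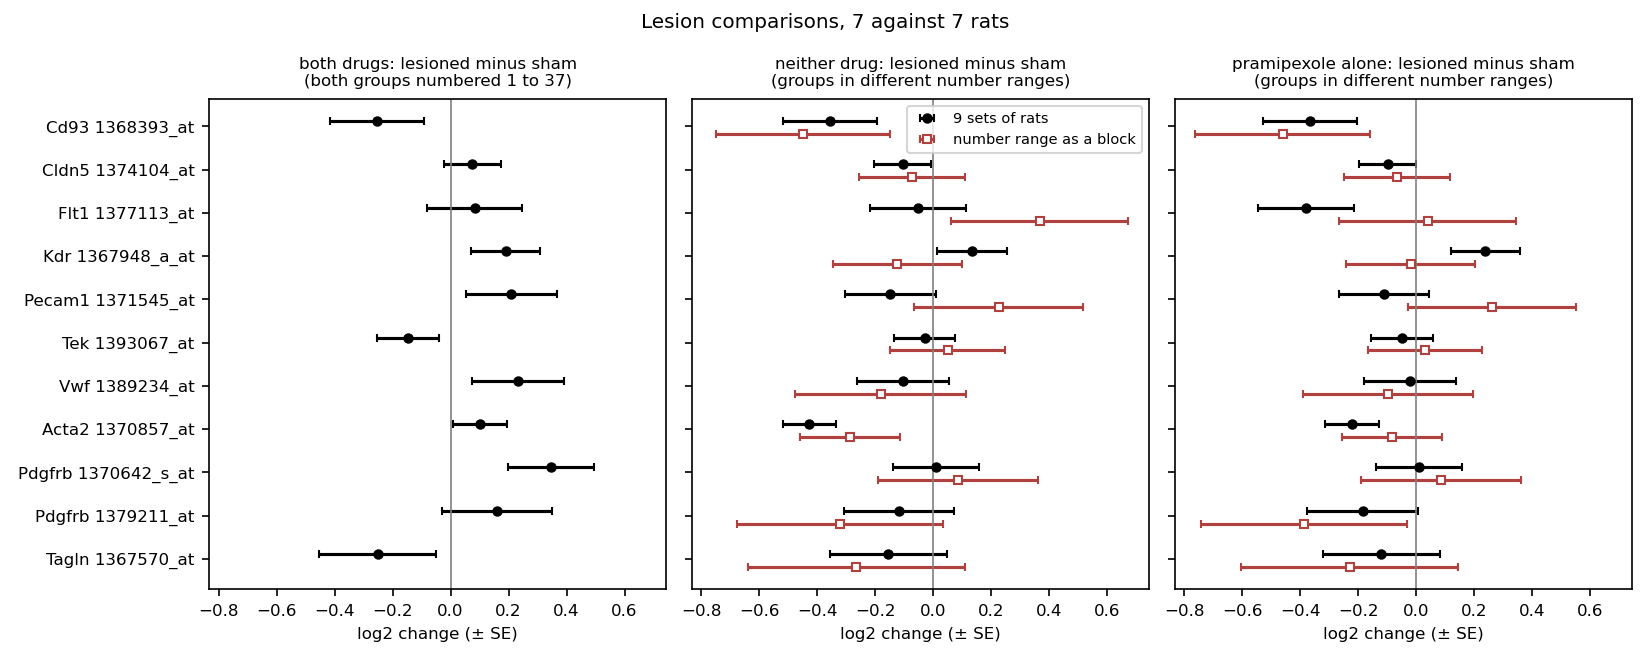
Log2 change with SE of the 11 vascular probe sets for the lesion (lesioned minus sham) in 3 drug settings. Black points are from the fit of 9 sets of rats and open red squares from the fit with the number range as a block; Acta2 with neither drug is at -0.43 as a black point and at -0.29 as a red square.

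Between rats of the same group, vascular signals followed Hbb only weakly. Of the 11 tested probe sets, 10 had a positive correlation with Hbb within groups, with a median r of 0.19 over 56 rats, where all other probe sets had a median of 0.02 and 53.3% were positive. The middle 90% of all probe sets ran from -0.32 to 0.32. Tek had r = 0.34 (permutation p = 0.0111) and rho = 0.36 (permutation p = 0.0095), and the brighter Pdgfrb probe set r = 0.33 (permutation p = 0.0164) and rho = 0.31 (permutation p = 0.0321). Adjusted over all probe sets by limma, p was 0.208 for Tek and 0.227 for Pdgfrb. Hence no vascular probe set passed, where 0.0644% (12) of 18624 probe sets passed with a positive and 0.0215% (4) with a negative slope. All r values use the same Hbb probe set and the same arrays.

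Tek correlated with Hbb at r = 0.23 in rats 1 to 37 and 0.61 in rats 38 to 56. Without rats 1 and 22, which lay farthest in Hbb, it was 0.28 (permutation p = 0.0446). By single group the Tek correlation ran between -0.68 and 0.88 and was positive in 7 of 8 groups of 7 rats. Pdgfrb had 0.29 and 0.46 in the 2 number ranges, and 0.35 without the farthest rats. For Cldn5 the values were 0.05 and 0.51, and for Tagln 0.04 and 0.50, so both were close to 0 in the larger range. Pecam1 was the 1 negative gene at r = -0.14, with -0.29 and 0.17 in the ranges. Acta2 and Vwf were at 0.11 and 0.07, the 68.3rd and 60.1st percentiles of r among all probe sets.

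**Figure D4:**
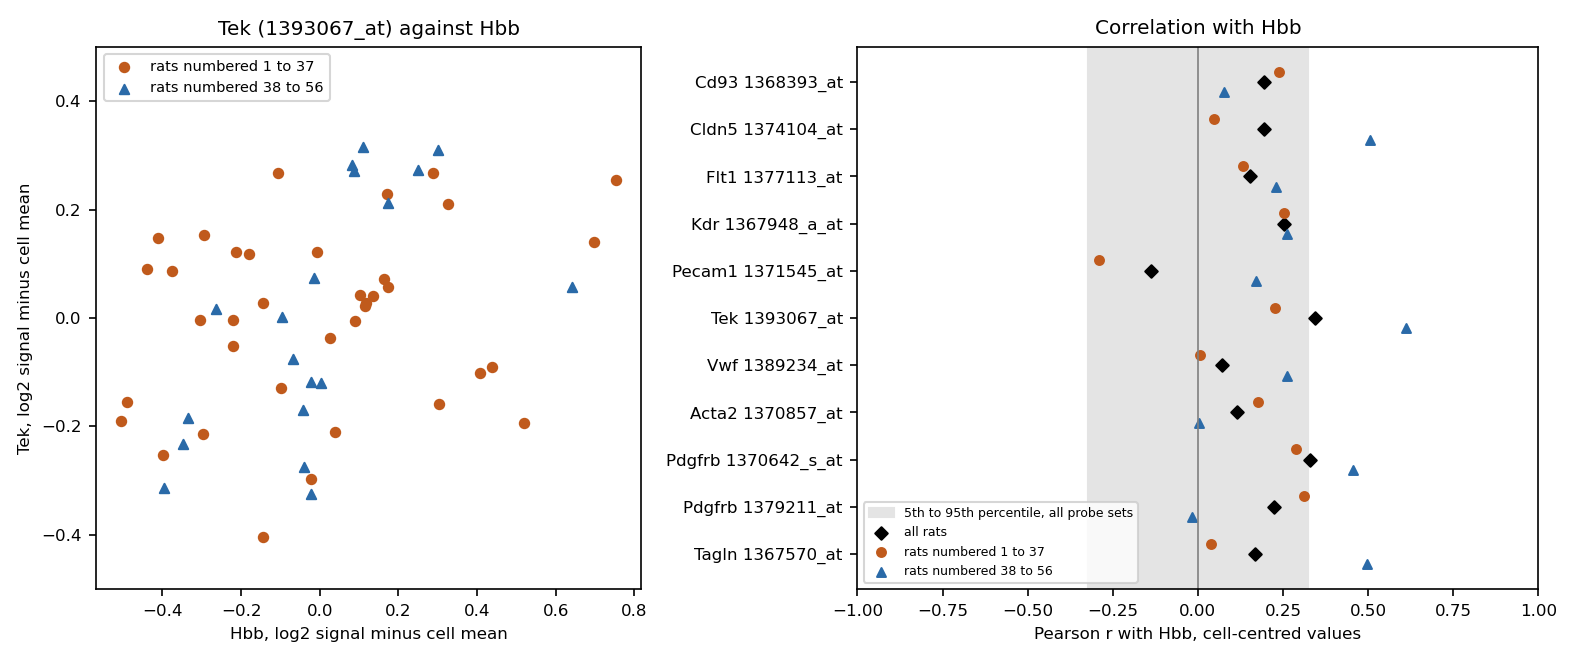
Left, Tek against Hbb, each as log2 signal minus the mean of its set of rats, for 56 rats (r = 0.34). Right, r with Hbb for the 11 vascular probe sets over all rats and in each number range, with a band for the middle 90% of all probe sets (-0.32 to 0.32).

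Correlations with Hbb were also mostly positive in other lists, including lists of cells outside the vessel wall. Of 24 tested genes on a list of other endothelial genes 22 had a positive r with Hbb (median 0.19), as did 7 of 9 other mural genes (median 0.12), 8 of 9 smooth muscle contractile genes (median 0.12) and 11 of 13 vascular growth factor genes (median 0.18). All 10 tested genes of the leptomeninges were positive (median 0.22), as were 5 of 6 astrocyte genes (median 0.23), 4 of 4 oligodendrocyte genes (median 0.10) and 3 of 3 cerebral cortex genes (median 0.27). All 6 striatal neuron genes were negative (median -0.35), and 2 of 7 microglia genes were positive (median -0.07). None of the genes on these lists passed. The strongest correlates of Hbb were other globin probe sets.

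Pairs of vascular genes also had more positive than negative correlations between rats. Over the 45 pairs of the 10 genes, 36 within-group correlations were positive with a median r of 0.12, whereas the correlations of these genes with all other probe sets had a median of 0.02 and 53.5% were positive. All pairs share the same 56 arrays. Some of these genes were correlated about as strongly with scores of other cell types. For the oligodendrocyte score, r was 0.45 with Tek, 0.42 with Kdr and 0.41 with Cldn5. It was negative only with Acta2 (-0.06) and Pecam1 (-0.08). Whether the pair correlations follow such scores was not tested. Cldn5 and Pdgfrb had the highest r at 0.53, with 0.52 and 0.56 in the 2 number ranges and 0.46 without the 2 rats farthest in Cldn5. Cldn5 and Tagln were at 0.47, but at 0.22 without the same 2 rats. Tagln and Tek were at 0.47, and at 0.34 without the 2 rats farthest in Tagln. Cldn5 and Tek had 0.41, and Kdr and Tek as well as Pdgfrb and Tek had 0.39. Over all 56 rats the 3 pairs among Cldn5, Pdgfrb and Tek were thus all at 0.39 or above, while Pecam1 with Vwf (-0.18) and Acta2 with Kdr (-0.17) were lowest. Without rats 2 and 7, Cldn5 had 0.52 with Pdgfrb, 0.44 with Tagln and 0.39 with Tek. Tek then had 0.41 with Tagln, 0.36 with Kdr and 0.38 with Pdgfrb.

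By class, the 3 mural pairs had a median r of 0.24, the 21 endothelial pairs 0.13 and the 21 mixed pairs 0.06. The overall median was 0.18 in rats 1 to 37, 0.08 in rats 38 to 56 and 0.09 without rats 2 and 7. Of the 45 pairs, 33, 26 and 35 were positive in these settings. Correlations between probe sets of the same gene ran over much of this range, with 0.15 for Kdr, -0.10, -0.02 and 0.48 for the 3 pairs of Flt1, and 0.31, -0.06 and 0.13 for those of Pdgfrb.

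**Figure D5:**
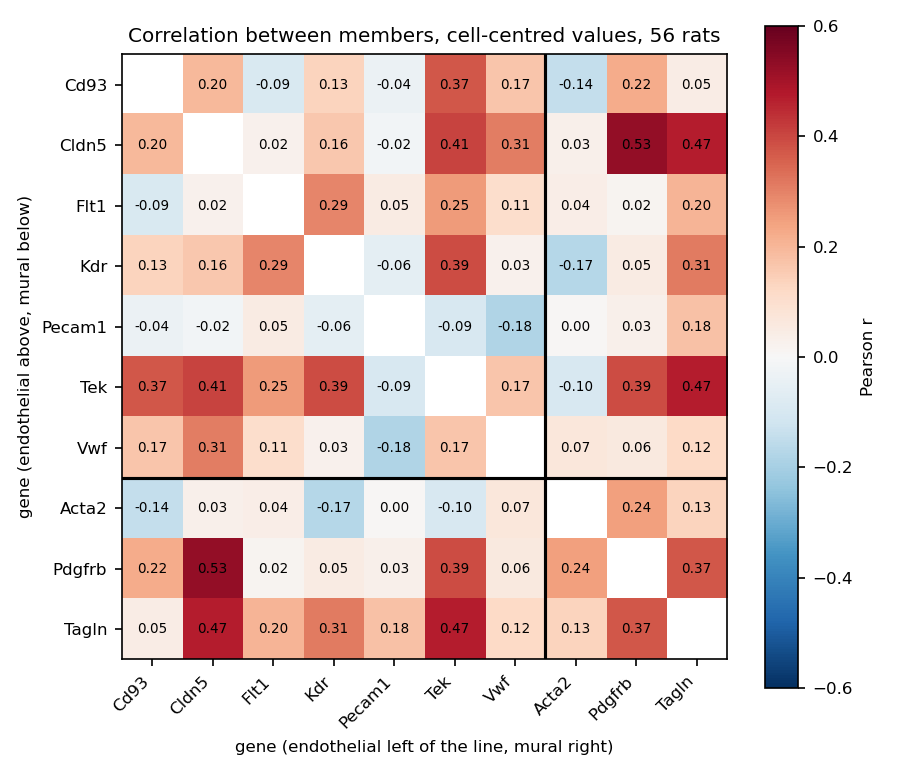
Within-group Pearson r between the 10 genes over 56 rats, each gene by its brightest tested probe set. The cell for Cldn5 and Pdgfrb has the highest value, 0.53, and that for Pecam1 and Vwf the lowest, -0.18.

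Among all tested probe sets with a gene symbol, those most like Cldn5 between rats within groups were Tmcc2 (r = 0.70), Jam2 (0.68), which encodes a junctional adhesion molecule, and Tnk2 (0.67). Tek was most like Map4 (0.67), Fam193b (0.62) and Slco1a4 (0.61), an organic anion transporter of the barrier. For Cd93 the nearest was Atp2a2 (0.66), for Tagln Eef2 (0.64), for Kdr Stmp1 (0.59), for Pdgfrb Fndc5 (0.59) and for Vwf Psd3 (0.59). Pecam1 was nearest to Srebf1 (0.57), Flt1 to Pan3 (0.52) and Acta2 to Ubac1 (0.50). These are the largest of very many correlations over the same 56 arrays and carry no test.

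Further genes of the vessel wall were counted from lists. Of 35 other endothelial genes 24 were tested, of 15 other mural genes 9, of 15 smooth muscle contractile genes 9 and of 25 vascular growth factor genes 13, and 0 of them passed in any of the 19 comparisons. With pramipexole in lesioned rats given L-dopa, 14 other endothelial genes were higher and 10 lower, and in lesioned rats given saline 15 and 9. Of all probe sets, 51% and 53.4% were higher in these comparisons. In sham rats given saline 5 were higher and 19 lower, with a median of -0.06, where 51.2% of all probe sets were higher. There Ramp2, a receptor-modifying protein of endothelium, was at -0.25 ± 0.09 (limma adjusted p = 0.680). Abcc9, a pericyte potassium channel subunit, and Vegfa, the growth factor bound by Kdr and Flt1, had the smallest p in their own lists. Abcc9 was at -0.27 ± 0.10 (limma adjusted p = 0.684) and Vegfa at -0.18 ± 0.08 (limma adjusted p = 0.731). The mean of the 9 tested other mural genes, each minus its mean over 56 rats, was -0.004 with pramipexole and +0.097 without. For the 13 tested growth factor genes it was -0.001 and +0.005.

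With L-dopa in lesioned saline-conditioned rats 17 other endothelial genes were higher and 7 lower, where 52.6% of all probe sets were higher. The score of 3 cerebral cortex genes also differed in mean there, at +0.37 ± 0.42 (SD) with L-dopa and -0.33 ± 0.78 with saline. The part of such tissue differences in the endothelial values was not tested. Slc2a1, the barrier glucose transporter, was at +0.16 ± 0.08 (limma adjusted p = 0.358). In sham rats given L-dopa all 9 tested smooth muscle genes were higher, with a median of +0.12 and 0 passing, while Acta2 and Tagln were at +0.02 and -0.29. There 8 of 10 leptomeningeal markers were also higher, with a median of +0.17 and 0 passing, and their part in the smooth muscle values was not tested. For the lesion with neither drug, where the groups differ in rat number, 5 other endothelial genes were higher and 19 lower with a median of -0.12, against -0.02 for all probe sets. Lef1, a transcription factor of the Wnt pathway, was at -0.36 ± 0.11 there (limma adjusted p = 0.112). Srf, the serum response factor that binds CArG boxes, was at -0.12 ± 0.06 (limma adjusted p = 0.326), the smallest p among the smooth muscle contractile genes. The mean of the 9 tested genes of that list, each minus its mean over 56 rats, was -0.03 in lesioned and -0.01 in sham rats given neither drug. In rats given both drugs 7 other endothelial genes were higher and 17 lower for the lesion, with a median of -0.03, where 50.5% of all probe sets were higher.

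The 5 dim probe sets had mean log2 signals of 4.06 (Cd93, 1387168_at), 4.69 and 4.36 (Flt1, 1370492_a_at and 1369087_at), 1.61 (Kdr, 1397868_at) and 4.51 (Pdgfrb, 1391394_s_at). When all probe sets were tested without the filter, none of the 5 passed in any comparison. The dimmest, Kdr 1397868_at, was at -2.25 ± 0.74 with pramipexole in lesioned rats given saline (limma adjusted p = 0.660). Its signals ran between -1.91 and 1.83 in those rats, against -0.46 and 3.24 in lesioned rats given neither drug, so the ranges overlapped. A further 5 probe sets shared by Acta2 and Actc1 were not counted and were all below the filter.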

How the data were processed

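Total RNA of the dorsal striatum was hybridized to Affymetrix Rat230_2 arrays, 1 per rat. The deposited values are log2 signals made by the authors with MAS5, per the submitters' processing notes, version not given in the sources used here. The trimmed mean of the unlogged signal, leaving out 2% at each end, was 150 on every array, so changes are relative to that scaling; precision is set by how many arrays there were. Of 31099 probe sets, 57 controls were left out, and 18625 of the rest with a mean log2 above the 40th percentile were tested. Symbols came from the platform annotation, 99.7% matched to RefSeq by gene ID.

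Limma 3.58.1 (R 4.3.3) fitted 9 sets of rats (8 groups, 1 split between rats 37 and 38) with empirical Bayes moderation and Benjamini-Hochberg adjustment over all tested probe sets; recovery was tested on simulated data. Correlations used signals minus the means of those sets, with 100000 permutations within sets. No p-value is given for pairs of genes, or adjusted over the genes alone, because members and lists were chosen with earlier results of these data known, as was the division by rat number. Genes were named as members, or from the lists by the smallest p. Whether rats were pooled or littermates is not given.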

Additional observations from a re-analysis of the deposited data

Results flagged for a closer look

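In 5 of 88 sets of 7 rats of a tested vascular probe set, 1 rat lay far from the other 6 by Dixon's criterion; chance alone gives about 1 in 20. Cd93 was lowest in rat 40 of Sham_Ldopa_saline at 5.06, where the next lowest rat had 5.51. Cldn5 was lowest in rat 24 of Lesion_saline_saline at 9.20, with the next at 9.34. Pdgfrb (1379211_at) was lowest in rat 17 of Lesion_saline_ppx at 4.06, with the next at 4.95. Pecam1 was lowest in rat 49 of Sham_saline_ppx at 4.25, with the next at 5.03. Vwf was highest in rat 30 of Sham_Ldopa_ppx at 6.97, with the next at 6.50. The 5 values came from 5 different rats, none of them rat 2 or rat 7.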

How the results depend on the processing

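The count of vascular probe sets that passed stayed at 0 in every comparison but the lesion with neither drug, under each of the alternatives run: no filter or a stricter one, quantile normalization, 16 added to the signal, a trended robust prior, array weights, other groupings, covariates and leaving out single rats. The 60th percentile filter left only Cldn5, Flt1, Kdr, Tek and Vwf among the vascular genes, so that Cd93 and the rest could not pass under it. In the lesion with neither drug the count was 0, against 1, with that filter, under which Acta2 was not tested. It was also 0 with the number range as a block, where Acta2 was at -0.29. With that block Flt1 under pramipexole alone was at +0.040, against -0.38 without it. Leaving out each rat in turn kept Acta2 between -0.47 and -0.36 (limma adjusted p 0.0043 to 0.0314) and Cd93 with pramipexole in lesioned rats given L-dopa between -0.61 and -0.42. Over all other settings in which Cd93 was tested, that change ran from -0.61 to -0.35 and the limma adjusted p from 0.304 to 0.942. Of 66 drug changes, 54 kept their sign with Hbb as a covariate and 55 with a leptomeningeal score. The causes were not tested. No paired analysis was possible because rat numbers are not shared between groups. Signals near the filter, as of Cd93, Pecam1 and Pdgfrb, limit the precision.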
